A study of Bos taurus with 12 samples.

Results

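The homeobox, forkhead, KLF, TEAD and nuclear receptor transcription factors were followed in bovine endometrium, the lining of the uterus, sampled before an embryo transfer that either led to a calf or failed. Members were all probe sets with 1 gene symbol beginning HOXA, HOXB, HOXC, HOXD, FOX, SOX, GATA, KLF, TBX, PAX, MSX, LHX, IRX, MEIS, PBX, TEAD, PPAR, RAR, RXR, or NR followed by a number, and the sine oculis homeobox genes (SIX3, SIX5 and SIX6 on this array). NR3C1 and names that do not code for such factors were left out, which removed 14 of 88 names. This left 74 genes on the array. A gene was kept when a probe set exceeded 4 on the log2 scale on at least 3 of the 12 arrays, and it was then read from its kept probe set with the highest mean. The filter kept 39 of the 74, out of 6781 named genes kept in all.

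HOX proteins are homeodomain factors whose genes lie in clusters and set positional identity along the body and the female reproductive tract. MEIS and PBX proteins are their DNA-binding partners. FOX, KLF and TEAD factors act in epithelial and stromal differentiation, and KLF9 and KLF13 are known as partners of steroid receptor signalling in the uterus. Nuclear receptors bind DNA in response to hormones, retinoids or fatty acids, or act as orphans with no established ligand. NR2F2 (COUP-TFII) is known as a factor of uterine stroma downstream of progesterone and Hedgehog signalling, and MSX1 as a homeobox factor of the receptive uterus.

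The biopsies came from Simmental heifers at day 7 or day 14 of the oestrous cycle before the transfer cycle, so no embryo was present. NP heifers returned to heat after transfer, and CD heifers carried to delivery of a calf. The 4 groups, NPd7, CDd7, NPd14 and CDd14, each hold 3 arrays, and each array carried RNA from a pool. The number and age of the heifers in a pool, and whether the same heifers gave both days, were not stated in the labels, so p-values measure only the spread between pools. The outcome was assigned after the biopsy, and the embryo also bears on it.

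Values are log2 expression after GCRMA, in which dim probe sets lie near a common floor, and the number of arrays limits the precision. Over all kept probe sets, arrays of the same group correlated at 0.921 to 0.988, and those of different groups at 0.862 to 0.981. Pools 2 and 3 of NPd14 correlated least with their own group, at a mean r of 0.946 and 0.941. Epithelial markers were high and close in level in all groups, with the log2 of their summed signal between 16.28 and 16.49 over 14 of 15 listed genes. Stromal fibroblast markers (12 of 16 kept, without COL1A1, PDGFRB and POSTN) ranged from 13.19 to 14.50 in NPd7, 11.57 to 12.54 in CDd7, 12.53 to 13.14 in NPd14 and 12.02 to 12.96 in CDd14. They separated the outcomes at day 7 and overlapped at day 14. T and natural killer cell markers (9 of 14 kept) ranged from 10.63 to 11.73 in NPd7 and from 9.22 to 10.68 in CDd7. None of the 6 smooth muscle markers on the array was kept, and of the endothelial markers only CLDN5 was. The log2 difference between 3' and 5' control probe sets, a measure of RNA quality and amplification, ranged from 1.73 to 2.11 in NPd7, 1.42 to 1.79 in CDd7, 2.12 to 2.42 in NPd14 and 1.84 to 2.05 in CDd14. These ranges overlap between the outcomes at day 7, but not at day 14, nor between the days of either outcome. The part of RNA quality in the members' differences was not tested. In a biopsy, fewer cells of a type and less RNA per cell cannot be told apart.

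All 6 KLF genes on the array were kept, as were 6 of 11 HOX genes, 4 of 5 MEIS and PBX genes, 5 of 10 FOX genes, 2 of 3 TEAD genes and 12 of 20 nuclear receptors. Of the IRX, MSX, LHX, PAX and sine oculis homeobox genes 4 of 8 were kept. No SOX (0 of 5), GATA (0 of 4) or TBX (0 of 2) gene was. The 35 genes left out by the filter include HOXA10, FOXL2, SOX4, GATA6, NR5A2 and PPARG. Just inside the filter lay FOXO4, PPARA and HOXB3, where the third highest values were 4.42, 4.45 and 4.57. Just outside lay NR1H3, MEIS3 and HOXD10, at 3.99, 3.62 and 3.05. Of the kept genes 35 exceeded 4 on all 12 arrays. The other 4 were HOXA9, above it on 10 arrays, and NR4A1, PPARA and FOXO4, above it on 5, 5 and 4.

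HOXA9, a posterior gene of the HOXA cluster, had the largest outcome difference among the members and the only one past the threshold. Its log2 levels were 7.42, 6.63 and 8.29 in NPd7 and 4.54, 3.37 and 5.0 in CDd7. At day 14 they were 7.39, 7.30 and 8.29 in NPd14 and 5.48, 3.65 and 5.39 in CDd14. Every CD pool lay below every NP pool on both days. Pool 2 was the lowest of its group in all 4 groups, and in CD it fell under the filter level of 4. At day 7 HOXA9 was 7.45 ± 0.83 in NP and 4.31 ± 0.84 in CD (SD, n = 3 each). It fell by 3.14 on the log2 scale in CD (SE 0.61, 95% interval -4.49 to -1.79), an 8.83-fold difference with an adjusted p of 0.0336 by limma. At day 14 the levels were 7.66 ± 0.55 and 4.84 ± 1.03 (SD, n = 3 each), a difference of -2.82 (SE 0.61, interval -4.17 to -1.47). The unadjusted p was 0.000898 and the adjusted p by limma 0.291, so the day 14 difference did not pass. The outcome difference changed between days by 0.32 (SE 0.86, adjusted p = 0.878 by limma), with an interval of -1.59 to 2.24. HOXA9 differed between day 14 and day 7 by 0.53 in CD and 0.21 in NP, neither past the threshold.

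The day 7 call of HOXA9 was close to the threshold. It ended without NPd7 pool 1 (adjusted p = 0.127), NPd7 pool 3 (0.146), CDd7 pool 2 (0.135), NPd14 pool 1 (0.0501) or CDd14 pool 3 (0.0557), all by limma. Calls over all probe sets fell too, from 503 to 0, 0, 4, 196 and 80 in this order, so the loss was not particular to HOXA9. The log2 difference stayed between -2.67 and -3.16 in these fits. Stromal fibroblast markers were lower in CDd7 as well: 8 of 12 kept genes fell (all genes 2.02%), with a median log2 difference of -3.0 over the 12. At day 14 0 of the 12 passed, but 11 of the 12 were again lower in CD, with a median of -0.65. Their summed levels overlapped at day 14, and HOXA9 did not. JCHAIN, the joining chain of plasma cell antibodies and the only kept marker of 7 listed for plasma and B cells, had lower means in CD on both days too. It ranged from 8.48 to 10.64 in NPd7 and from 4.29 to 8.18 in CDd7, without overlap, and from 8.37 to 12.66 in NPd14 and 6.45 to 8.62 in CDd14, with overlap. Pool 2 was its lowest pool in all 4 groups, NP and CD alike, as for HOXA9. Its differences of -3.49 and -3.41 did not pass (adjusted p = 0.100 and 0.575 by limma). The part of stromal or plasma cell content in the HOXA9 difference was not tested.

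The other genes of the HOXA cluster that were measured did not pass the threshold. In RefSeq annotation of the assembly ARS-UCD2.0, HOXA10 and HOXA7 flank HOXA9, and HOXA5 and HOXA4 lie further along on the HOXA7 side. HOXA10, known for its part in uterine receptivity, did not exceed 3.31 on any array, and HOXA7, HOXA11 and HOXA13 were not analysed here. HOXA5 was 10.23, 9.90 and 10.22 in NPd7 and 10.33, 9.92 and 10.87 in CDd7. The groups overlapped, with a difference of 0.25 (interval -0.28 to 0.79) at day 7 and 0.34 (interval -0.20 to 0.87) at day 14. HOXA4 was 6.70, 6.24 and 6.97 in NPd7 and 6.57, 5.92 and 6.35 in CDd7, and it also overlapped. Its difference was -0.36 (interval -0.84 to 0.12) at day 7 and -0.01 (interval -0.49 to 0.47) at day 14. The difference between HOXA9 and these neighbours was not tested.

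**Figure D1:**
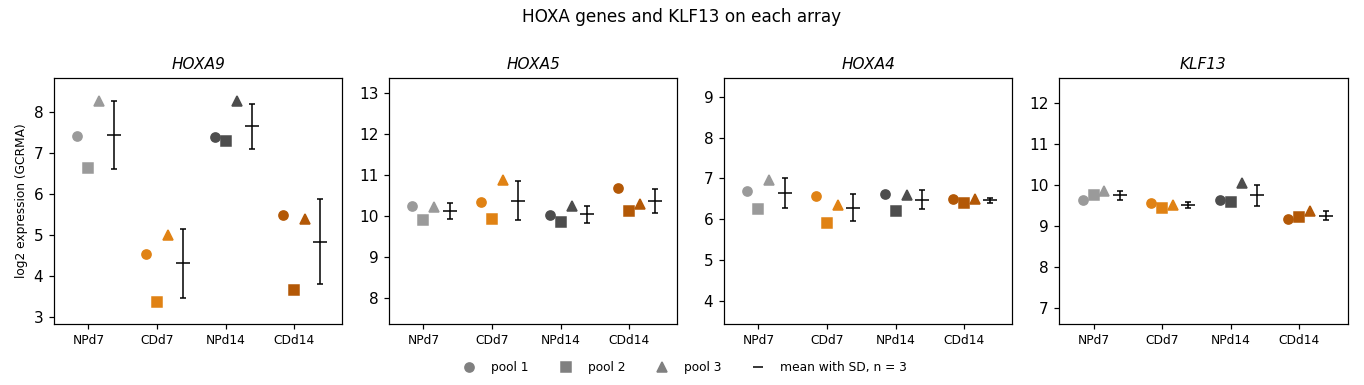
Log2 expression (GCRMA, vertical axis, each panel spanning 6 log2 units) of HOXA9, HOXA5, HOXA4 and KLF13 on each array, by group; markers are pools 1 to 3 and bars the mean with SD (n = 3). HOXA9 lies at 6.63 or above on all NP arrays and at 5.48 or below on all CD arrays, while HOXA5 and HOXA4 overlap.

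Among the 39 genes, HOXA9 was the only one called between outcomes at day 7 (2.56%), against 3.48% of all 6781 genes, 1.46% higher and 2.02% lower. In 13 of the 39 (33.3%) the groups did not overlap, against 35.3% of all genes, and 14 (35.9%; all genes 30.4%) had an unadjusted p under 0.05 by limma. These shares lie near those of all genes. The members' median difference was -0.26, with 28 of 39 negative, and that of all genes -0.01. The 10 genes that did not overlap and were lower in CDd7 (all genes 18.6%) are HOXA9, HOXB4, MEIS2, IRX3, TEAD2, FOXP4, KLF13, NR2F2, NR4A2 and RXRA. The 3 that were higher (all genes 16.7%) are PBX3, PAX8 and KLF15.

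The HOX partners MEIS2 and PBX3 lay on opposite sides of 0. MEIS2, a gene chosen here after its values were seen, read 7.13, 7.16 and 6.78 in NPd7 and 6.10, 4.46 and 5.57 in CDd7. All CDd7 pools lay below all NPd7 pools, and the difference was -1.65 (SE 0.49, adjusted p = 0.0728 by limma). PBX3 read 5.69, 6.31 and 5.21 in NPd7 and 6.91, 6.55 and 6.48 in CDd7, a difference of 0.91 (SE 0.27, adjusted p = 0.0704 by limma). Neither passed. At day 14 both genes overlapped between outcomes, with differences of -0.34 and -0.10.

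IRX3, an Iroquois homeobox factor, came nearest to the threshold after HOXA9. Its levels were 10.65, 10.02 and 10.79 in NPd7 and 9.08, 8.68 and 9.54 in CDd7. The CDd7 pools were also below all pools of NPd14 (10.17, 9.73 and 10.90) and CDd14 (9.99, 10.79 and 10.13). The day 7 difference was -1.39 (SE 0.35, interval -2.17 to -0.61, adjusted p = 0.0541 by limma) and the day 14 difference 0.03 (interval -0.75 to 0.81). The day 7 difference passed with trended and robust moderation (adjusted p = 0.0481 by limma) and without NPd7 pool 2, CDd7 pool 3, NPd14 pool 2 or NPd14 pool 3 (0.0304 to 0.0453). PAX8, a paired box factor of the Müllerian duct, was dim, at 4.64 to 5.28 in NPd7 and 5.36 to 5.71 in CDd7 (difference 0.56, adjusted p = 0.0786 by limma).

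KLF15, a factor of glucocorticoid and metabolic responses, was 11.08, 11.88 and 11.22 in NPd7 and 12.32, 12.21 and 12.15 in CDd7. The groups did not overlap, and the difference of 0.84 (SE 0.23) had an adjusted p of 0.0626 by limma. KLF4, a factor of epithelial differentiation, overlapped on both days, with differences of 0.19 and -0.43. TEAD2, a DNA-binding partner of the Hippo effectors YAP and TAZ, was 6.16, 5.98 and 5.52 in NPd7 and 4.90, 5.32 and 5.47 in CDd7. Its difference was -0.66 (SE 0.20, adjusted p = 0.0749 by limma). The forkhead factor FOXO4, near the filter, was 4.34, 3.80 and 4.91 in NPd7 and 3.38, 2.89 and 3.81 in CDd7, which overlap, with an adjusted p of 0.0792 by limma. FOXO4 exceeded the filter level on 2 NPd7 arrays, 2 NPd14 arrays and 0 CD arrays. It was kept only through NP, so its direction between outcomes is in part set by the filter. FOXP1, a related forkhead factor, overlapped on both days (differences -0.60 and 0.30).

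Among the nuclear receptors 0 of 12 passed between outcomes on either day, and 8 of the 12 had a negative difference at day 7. PPARA, a fatty acid sensor that drives fat oxidation, was dim at 3.41, 4.21 and 3.60 in NPd7 and 5.70, 5.23 and 4.17 in CDd7. CDd7 pool 3 lay below NPd7 pool 2, so the groups overlapped, and the difference of 1.30 (SE 0.39) had an adjusted p of 0.0729 by limma. PPARA exceeded the filter level on 3 CDd7 arrays, 1 NPd7 array and 1 CDd14 array, so it was kept through CDd7. PPARD, a related fatty acid receptor, was 7.27, 8.54 and 7.94 in NPd7 and 8.76, 8.70 and 8.51 in CDd7. NPd7 pool 2 lay within the CDd7 range, and the difference of 0.74 had an adjusted p of 0.104 by limma. RXRA, the retinoid X receptor that pairs with PPAR and RAR proteins, was 8.76, 8.62 and 9.07 in NPd7 and 8.50, 7.95 and 8.24 in CDd7. These do not overlap, and the difference of -0.59 had an adjusted p of 0.188 by limma. RARA, the alpha receptor for retinoic acid, ranged from 5.70 to 6.18 in NPd7 and from 5.70 to 5.87 in CDd7. A second RARA probe set was lower in CDd7 by 0.40 without overlap (adjusted p = 0.295 by limma).

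NR2F1 and NR2F2, the 2 COUP-TF orphan receptors, lay on opposite sides of 0 at day 7. NR2F1 was 7.34, 8.04 and 7.18 in NPd7 and 7.94, 10.38 and 9.55 in CDd7, and 7.13, 6.89 and 6.43 in NPd14 and 6.35, 9.06 and 8.09 in CDd14. CD pools 2 and 3 were above all NP pools on both days, and CD pool 1 was not. Its difference of 1.77 at day 7 (SE 0.71) had an adjusted p of 0.131 by limma, and that of 1.02 at day 14 one of 0.817. Ciliated cell markers (4 of 10 kept) had the same order of pools in CD: 10.93, 12.38 and 11.85 at day 7 and 9.55, 11.88 and 10.87 at day 14, as log2 of summed signal. In NPd7 they were 11.32, 10.84 and 11.10, lowest in pool 2, where NR2F1 was highest. In NPd14 they were 9.27, 10.41 and 7.17, and their part in the NR2F1 values was not tested. NR2F2 was 10.71, 10.35 and 10.98 in NPd7 and 10.13, 9.56 and 10.19 in CDd7. These do not overlap, and the difference of -0.72 (SE 0.26) had an adjusted p of 0.106 by limma. A second NR2F2 probe set gave -0.73 with an adjusted p of 0.0517.

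**Figure D2:**
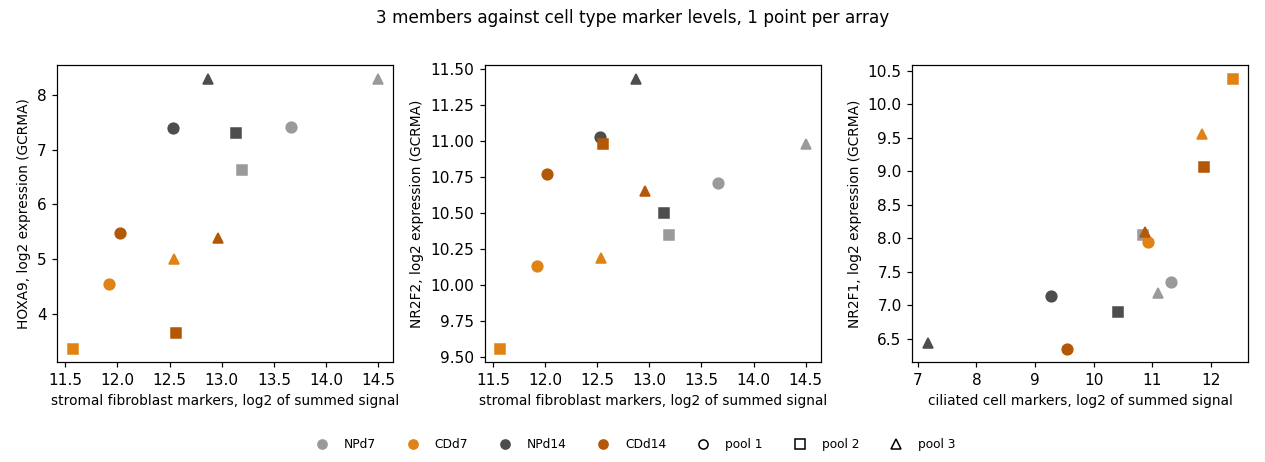
Log2 expression (GCRMA, vertical axes) of HOXA9 and NR2F2 against the log2 summed signal of 12 stromal fibroblast markers, and of NR2F1 against that of 4 ciliated cell markers, 1 point per array, coloured by group and shaped by pool. Stromal levels are lower in CDd7 than in NPd7 and overlap at day 14. HOXA9 is lower on every CD array than on every NP array, and the part of stromal content was not tested. CDd7 pool 2 is highest in both NR2F1 (10.38) and ciliated markers (12.38).

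The number of members called at day 7 depended on which pools were included. Without NPd7 pool 2, limma called 11 of the 39 members at day 7: HOXA9, PPARA, PPARD, IRX3, KLF10, KLF11, KLF15, FOXO4, PAX8, PBX3 and NR2C1. PPARA was kept through CDd7 arrays and FOXO4 only through NP arrays, so their calls are not independent of the filter. Calls over all probe sets rose as well in that fit, from 503 of 13449 in the main fit to 1676. Without CDd7 pool 3 it called 4 members (909 probe sets in all), without NPd14 pool 2 it called 3 (1015) and without NPd14 pool 3 it called 2 (649). For example, KLF11, a TGF-beta-inducible repressor chosen after its values were seen, was 11.09, 9.36 and 11.31 in NPd7 and 10.35, 9.44 and 10.34 in CDd7. NPd7 pool 2 lay below all CDd7 pools, and the 2 other NPd7 pools lay above them.

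At day 14, 0 of the 39 genes were called between outcomes by limma, against 0.0147% of all genes (1 gene). The groups did not overlap in 3 members (7.69%; all genes 10.6%), HOXA9, KLF13 and PBX2, and 2 (5.13%; all genes 6.34%) had an unadjusted p under 0.05. KLF13, related to KLF9 and chosen after its values were seen, was 9.62, 9.58 and 10.04 in NPd14 and 9.17, 9.21 and 9.37 in CDd14. Its difference was -0.49 (SE 0.14, adjusted p = 0.431 by limma). At day 7 KLF13 was 9.64, 9.75 and 9.85 in NPd7 and 9.57, 9.44 and 9.51 in CDd7, a difference of -0.24. HOXA9 and KLF13 were the only members in which all 6 CD arrays lay below all 6 NP arrays, a pattern found in 0.619% of all genes. For KLF13 the nearest arrays of the outcomes, 9.57 and 9.58, differ by far less than the spread within groups. The members' median difference at day 14 was -0.04, and that of all genes 0.03.

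**Figure D3:**
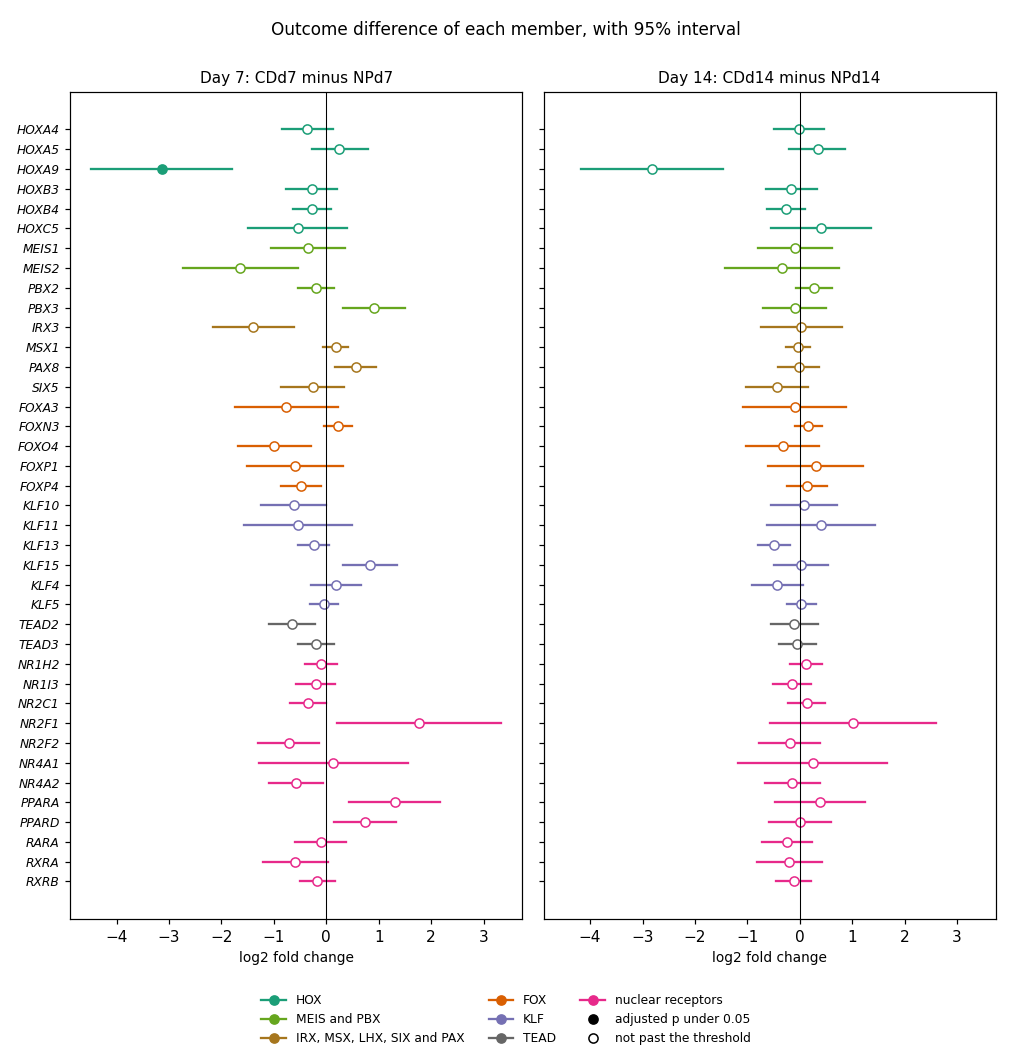
Log2 fold change of CD against NP (horizontal axis, with 95% intervals from limma) at day 7 (left) and day 14 (right) for the 39 genes, coloured by family; filled points passed an adjusted p of 0.05. HOXA9 is the only filled point (-3.14 at day 7) and keeps a similar position at day 14 (-2.82), while IRX3 moves from -1.39 to 0.03.

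Between day 7 and day 14 of the cycle, when progesterone from the corpus luteum is high, 9 of the 39 genes changed in CD (23.1%), against 24.1% of all genes. FOXP4, KLF10, IRX3, HOXC5, NR2F2 and NR4A2 rose, and KLF15, PBX3 and MSX1 fell. Of all genes 9.87% rose and 14.2% fell. The groups did not overlap in 19 members (48.7%; all genes 44.9%), 14 of them higher at day 14 and 5 lower (all genes 22.1% and 22.8%). Of those higher, NR4A1 exceeded the filter level only on day 14 arrays. The members' median difference was 0.19, with 13 of 39 negative, and the median of all genes was within 0.01 of 0. The CDd7 arrays enter this comparison and the day 7 outcome comparison, so a CDd7 level that stands apart appears in both. In 6 members (15.4%; all genes 17.5%) the 3 CDd7 pools lay outside the range of the 9 other arrays. KLF15 and PBX3 were higher there (all genes 9.98%), and FOXP4, IRX3, NR2F2 and NR4A2 lower (all genes 7.49%). Between the CD days the 3' to 5' control difference was also higher at day 14, without overlap. Of the 9 T and natural killer cell markers 2 rose, of the 14 epithelial markers 2 rose and of the 12 stromal markers 1 rose. CLDN5, a tight junction protein and the only endothelial marker kept, ranged from 5.78 to 7.21 in CDd7 and did not exceed 4.75 on any other array, and KLF15 and PBX3 were likewise highest in CDd7. CLDN5 fell by 4.48 between the CD days (adjusted p = 0.00176 by limma) and was 2.37 higher in CDd7 than in NPd7 (adjusted p = 0.0368 by limma). Without the CDd7 arrays CLDN5 would not have passed the filter. The part of these measures in the members' changes was not tested.

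Of the genes that fell, KLF15 was 12.32, 12.21 and 12.15 in CDd7 and 10.72, 11.05 and 11.20 in CDd14. It fell by 1.24 on the log2 scale (SE 0.23, 2.37-fold, adjusted p = 0.00679 by limma). PBX3 was 6.91, 6.55 and 6.48 in CDd7 and 5.64, 5.03 and 5.19 in CDd14. All day 14 pools of both genes were below all day 7 pools. PBX3 fell by 1.36 (SE 0.27, 2.57-fold, adjusted p = 0.0079 by limma).

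MSX1 was bright on every array, at 14.28, 14.42 and 14.33 in CDd7 and 13.85, 14.02 and 13.93 in CDd14. It fell by 0.41 (SE 0.11, adjusted p = 0.0222 by limma), without overlap. A second MSX1 probe set fell by 1.30 (SE 0.18, adjusted p = 0.00264 by limma), so the probe sets agree in direction and differ in size. In NP the MSX1 levels were 14.08, 14.34 and 14.08 at day 7 and 13.96, 13.95 and 13.99 at day 14, also without overlap. That difference was -0.20 (adjusted p = 0.394 by limma), and on the second probe set -0.67 (adjusted p = 0.141).

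Of the genes that rose, the forkhead repressor FOXP4 was 9.37, 9.34 and 9.89 in CDd7 and 10.19, 10.58 and 10.22 in CDd14. It rose by 0.79 (SE 0.17, 1.73-fold, adjusted p = 0.0104 by limma). A second, dimmer FOXP4 probe set differed by 0.12 (adjusted p = 0.535), so the call rests on the brighter probe set. KLF10, a TGF-beta-inducible repressor, was 10.88, 10.57 and 10.76 in CDd7 and 11.73, 11.61 and 11.78 in CDd14. It rose by 0.97 (SE 0.28, adjusted p = 0.0335 by limma), and its second probe set by 1.81 (adjusted p = 0.0429). The day 14 pools of both genes lay above all day 7 pools. KLF11, related to KLF10, differed by 1.34 (SE 0.46, adjusted p = 0.0593 by limma), and its other probe sets by 1.40 and 1.58, none past the threshold.

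IRX3 rose by 1.20 between the CD days (SE 0.35, 2.30-fold, adjusted p = 0.0338 by limma), from the CDd7 levels below all other arrays given above. HOXC5, a HOX gene of more anterior position, was 6.0, 5.16 and 5.52 in CDd7 and 7.67, 6.38 and 6.82 in CDd14. It rose by 1.40 (SE 0.43, 2.64-fold, adjusted p = 0.0400 by limma), without overlap. NR2F2 was 10.77, 10.98 and 10.65 in CDd14, above all CDd7 pools, and rose by 0.84 (SE 0.26, adjusted p = 0.0414 by limma). Its second probe set rose by 0.75 (adjusted p = 0.0167). NR4A2, an immediate-early orphan receptor, was 7.79, 7.48 and 8.02 in CDd7 and 8.30, 8.46 and 8.68 in CDd14. It rose by 0.72 (SE 0.23, adjusted p = 0.0483 by limma). The related NR4A1 lay below 4 on all 6 day 7 arrays and reached 4.72, 6.31 and 3.24 in NPd14 and 5.94, 4.57 and 4.50 in CDd14. All CDd14 pools lay above all CDd7 pools, but the difference of 1.17 (SE 0.64) had an adjusted p of 0.202 by limma. NR4A1 was kept only through day 14 arrays, so its direction between days is in part set by the filter.

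Of these 9 calls, FOXP4, KLF15 and PBX3 held in all 19 alternative fits. The call of NR4A2 was lost in 11 of them, quantile normalization (adjusted p = 0.0603 by limma) and no filter (0.0901) included. That of NR2F2 was lost in 8, those of KLF10 and HOXC5 in 7 each, that of IRX3 in 5 and that of MSX1 in 4. Without CDd7 pool 2 or CDd14 pool 3, FOXP4, KLF15 and PBX3 were the only members still called (3 in each fit). Calls over all probe sets fell as well, from 3231 to 1320 and 1673. Without CDd7 pool 1, CDd14 pool 1 or CDd14 pool 2 limma called 5 members (2185, 2226 and 2114 probe sets in all).

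**Figure D4:**
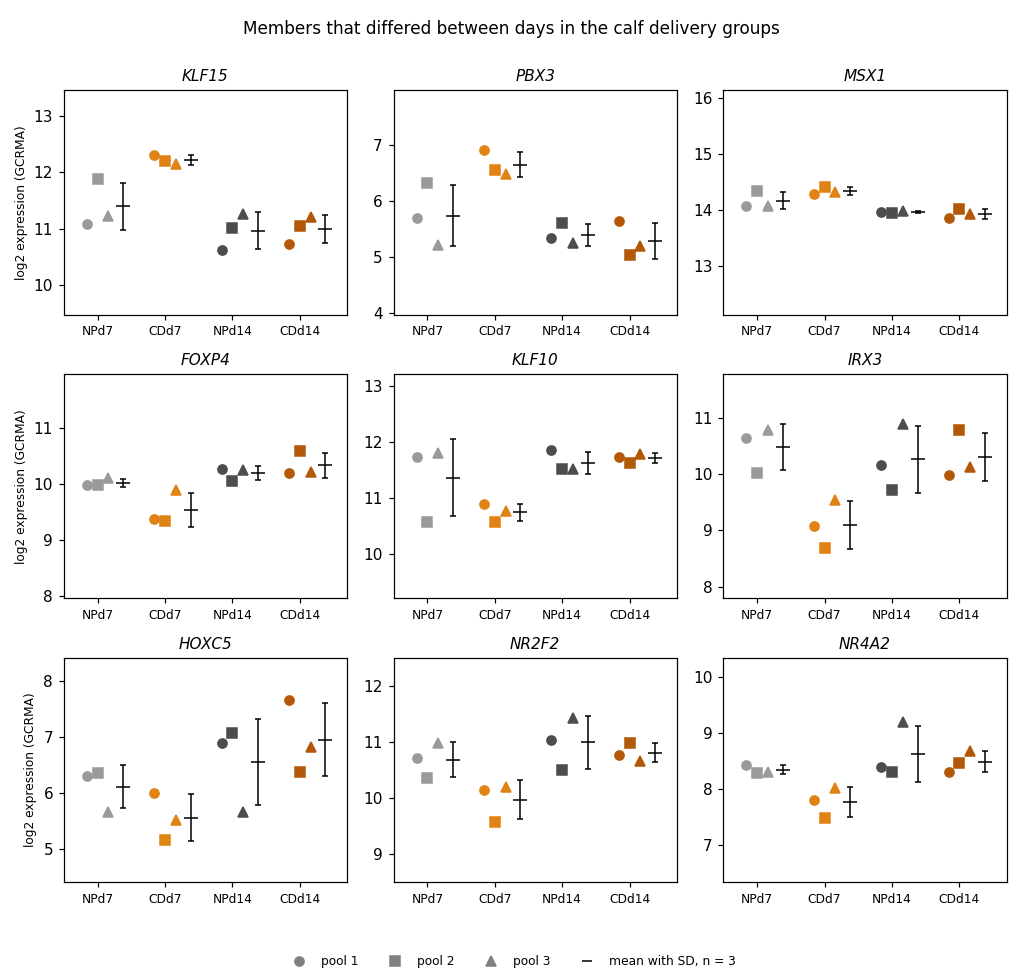
Log2 expression (GCRMA, vertical axis, each panel spanning 4 log2 units) of the 9 genes that changed between days in CD, on each array by group; markers are pools and bars the mean with SD (n = 3). In every panel the CDd7 and CDd14 pools do not overlap, and for all but MSX1, KLF10 and HOXC5 the CDd7 pools also lie outside the range of all 9 other arrays.

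In NP 0 of the 39 genes were called between the days by limma, against 0.133% of all genes (9 genes), and 1 (2.56%; all genes 16.5%) had an unadjusted p under 0.05. That gene was TEAD2, at 6.16, 5.98 and 5.52 in NPd7 and 5.35, 5.40 and 5.51 in NPd14 (difference -0.47, adjusted p = 0.29 by limma). The groups did not overlap in 4 members (10.3%; all genes 22.6%), MSX1, NR2F1, SIX5 and TEAD2, all lower at day 14 (all genes 15.3%). For the genes called in CD the NP differences were -0.43 for KLF15, -0.35 for PBX3, 0.17 for FOXP4, 0.26 for KLF10, -0.22 for IRX3, 0.44 for HOXC5, 0.31 for NR2F2 and 0.28 for NR4A2. IRX3 was the only one of these with opposite signs in CD and NP.

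Whether the day difference itself differed by outcome was tested directly, and limma called 0 of 39 members and 0% of all genes. Of the members 5 had an unadjusted p under 0.05 (12.8%; all genes 14.5%): IRX3, PBX3, FOXP4, KLF15 and PAX8. IRX3 had the smallest p, with a difference of 1.42 (SE 0.50, interval 0.32 to 2.52, adjusted p = 0.301 by limma). Those of PBX3, FOXP4 and KLF15 were -1.01 (interval -1.85 to -0.17), 0.62 (interval 0.09 to 1.15) and -0.81 (interval -1.54 to -0.08). The calls in CD and their absence in NP are therefore not shown to differ after adjustment.

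**Figure D5:**
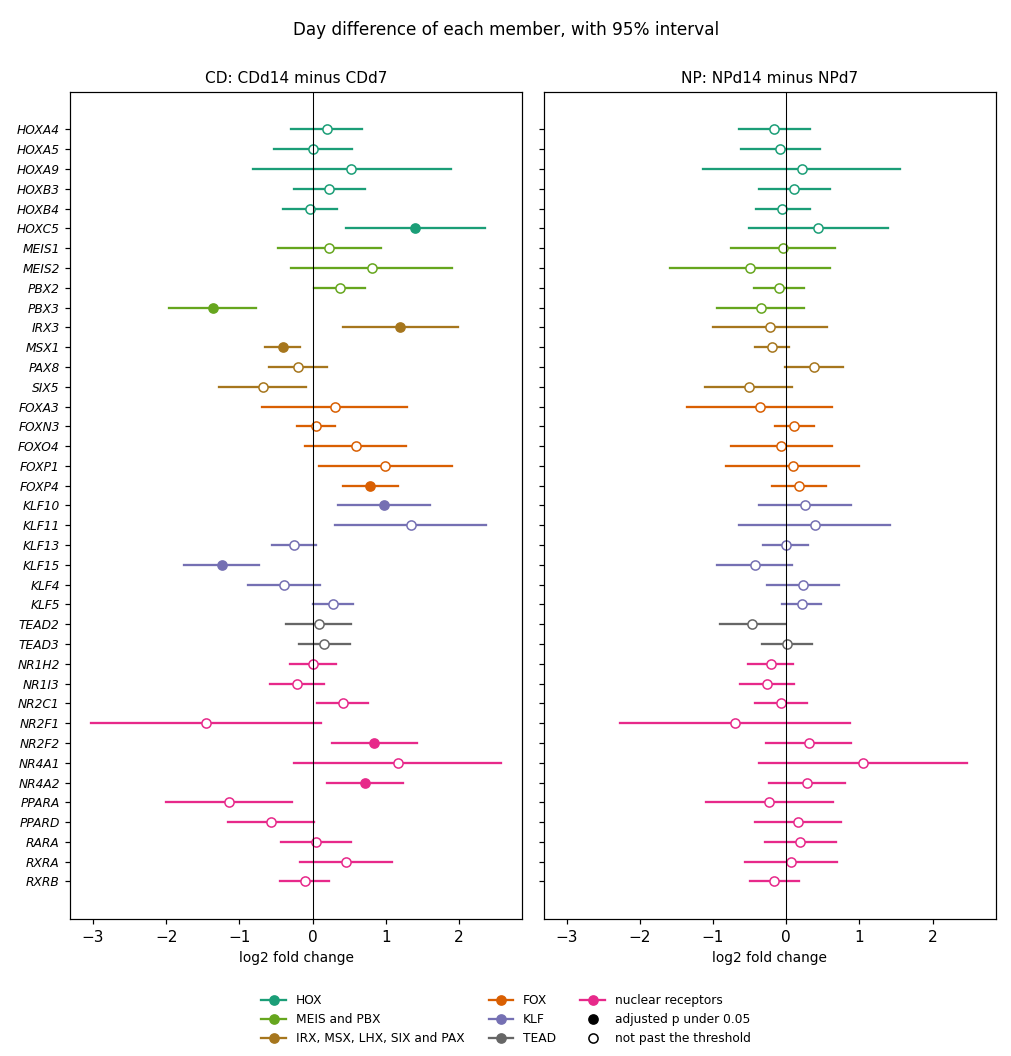
Log2 fold change of day 14 against day 7 (horizontal axis, with 95% intervals from limma) in CD (left) and NP (right) for the 39 genes, coloured by family; filled points passed an adjusted p of 0.05. In CD 9 points are filled, 6 of them above 0, and in NP none are.

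Genes that work with these factors were read from lists of partners, none of whose kept genes were called in the other 4 contrasts. Of 16 PPAR target genes 11 were kept, and between the CD days 2 rose and 1 fell (all genes 9.87% and 14.2%). LPL, the lipoprotein lipase, fell by 6.03 on the log2 scale (adjusted p = 0.00344 by limma). CD36, a fatty acid transporter, rose by 1.97 and HADHB, an enzyme of beta-oxidation, by 0.73. The receptors themselves differed by -1.14 (PPARA, adjusted p = 0.0570 by limma) and -0.57 (PPARD), neither past the threshold. The list was thus mixed in direction.

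Of 17 retinoid pathway genes 9 were kept, and between the CD days 3 rose and 1 fell (all genes 9.87% and 14.2%). LRAT, which esterifies retinol for storage, fell from 9.70 ± 0.67 to 5.21 ± 0.79 (SD, n = 3 each), a 22.5-fold difference with an adjusted p of 0.00253 by limma. ALDH1A1 and RDH10, enzymes on the route from retinol to retinoic acid, rose by 1.34 (adjusted p = 0.00882 by limma) and 1.44 (adjusted p = 0.0465). RBP4, the retinol carrier, rose from 1.91 ± 0.01, below the filter level, to 5.70 ± 1.28 (SD, n = 3 each). It was kept only through arrays of groups other than CDd7, so its rise is not independent of the filter. The retinoic acid receptor RARA and the retinoid X receptors RXRA and RXRB differed between the CD days by 0.05, 0.46 and -0.11, with 0 called. A second, dimmer RARA probe set rose by 0.60 without overlap (adjusted p = 0.103 by limma), so the RARA probe sets differ in size.

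Of 16 nuclear receptor coregulators 7 were kept, and between the CD days 1 rose and 1 fell (all genes 9.87% and 14.2%). The coactivator NCOA7 rose by 1.91 (3.75-fold, adjusted p = 0.00755 by limma) and PPARGC1A, a coactivator of PPAR proteins, fell by 1.96 (3.89-fold, adjusted p = 0.00485 by limma). PPARGC1A was 1.37 higher in CDd7 than in NPd7 (adjusted p = 0.0504 by limma), just short of the threshold. Of 12 listed decidual targets of FOXO1 and HOXA10 7 were kept, and 1 rose between the CD days (all genes 9.87%). This was IGFBP1, an insulin-like growth factor binding protein, from 2.20 ± 0.03 to 7.70 ± 1.43 (SD, n = 3 each). Its CDd7 level lay near the floor. It was kept only through arrays of other groups, so its rise is not independent of the filter. No call was made among the 5 FOX, SOX and GATA cofactors kept of 8, the 3 TEAD coactivators and targets kept of 15, or the progesterone and Hedgehog genes FKBP4 and SMO, kept of 13.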

How the data were processed

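Endometrial RNA pools were hybridised to Affymetrix bovine arrays, 3 pools in each of 4 groups. The authors deposited log2 values from GCRMA, named with limma in the submitters' processing notes without versions. GCRMA corrects background and normalizes across arrays. Of 24016 probe sets, after 112 controls were left out, 13449 (56.0%) exceeded 4 on at least 3 arrays. Gene names come from the platform annotation. The gene IDs of all 108 member probe sets match RefSeq symbols.

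A linear model with 4 group means was fitted with limma 3.58.1 in R 4.3.3 (8 residual and 2.13 prior degrees of freedom), for 5 contrasts, two-sided, with Benjamini-Hochberg adjustment over all 13449 probe sets and a threshold of 0.05. Adjusted p-values stand for probe sets and are counted once per gene. The script was tested on simulated data. Named with values are all members called in any contrast, TEAD2 as the smallest day 7 p of a family without calls, a list of uterine factors where kept, and the genes nearest the filter; others are marked or belong to counts of 5 or fewer, or were near the threshold and chosen after their values were seen. The members and lists were chosen with earlier results of these data known.

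The CDd14 pool with a differing name and replicate number was read by its replicate number. Deviations from group means correlated between same-numbered NP pools of the 2 days at 0.16, 0.62 and 0.51, weakest for pool 1. The numbers may therefore pair some of the NP arrays, which the labels do not state. The main fit did not pair them. Alternatives were no filter, a stricter filter at 6, quantile normalization, the pool number as a block, trended and robust moderation, averaging each gene's probe sets, only the arrays compared, and leaving out each array. No sequences were used, and RefSeq positions served only to order the HOXA genes.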

Additional observations from a re-analysis of the deposited data

How the results depend on the processing

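Counts of called members depended on the pools and, for 2 comparisons, on the settings. For CD minus NP at day 7 the count of 1 became 0 with no filter (HOXA9 adjusted p = 0.0652 by limma) and 0 with only the arrays compared (0.0926). It became 2 with trended and robust moderation, which added IRX3, and ranged from 0 to 11 when each array was left out. For the day effect in CD the count of 9 became 4 with no filter, where more probe sets were tested, and ranged from 3 to 10 when each array was left out. In the other settings it was 8 to 10. Calls over all probe sets moved as well when each array was left out. They ranged from 0 to 1676 at day 7 and from 1320 to 3732 between the CD days, against 503 and 3231 in the main fit. At day 7 they were 161 with no filter and 3 with only the arrays compared. The counts for CD minus NP at day 14, between days in NP and for the CD against NP contrast of the day effects were 0 under every alternative run. No called member changed sign.

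With the pool number as a replicate block, limma called 4 members at day 7 (HOXA9 with IRX3, FOXO4 and KLF15, at adjusted p = 0.0367, 0.0283 and 0.0438), 0 at day 14, 10 between days in CD, 0 between days in NP and 0 for the contrast of the day effects. Calls over all probe sets went from 503 to 1455 at day 7 and from 3231 to 3676 between days in CD. FOXO4 was kept only through NP arrays, so its call is not independent of the filter. A block over the NP arrays alone, added after seeing the data, called 0 (smallest adjusted p = 0.177). Same-numbered pools correlated at 0.24, -0.07 and 0.23 between the CD days, at -0.03, 0.36 and 0.27 between outcomes at day 7 and at 0.10, -0.23 and 0.16 at day 14, so the numbers were not taken as pairs there.

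Quantile normalization moved the median of all genes by less than 0.1. It turned the sign of the KLF median at day 14 (0.03 to -0.01) and of the median of IRX3, MSX1, PAX8 and SIX5 at day 7 (-0.04 to 0.01). Levels near the GCRMA floor limit HOXA9 in CD, PPARA, FOXO4 and NR4A1, and IGFBP1 and RBP4 in CDd7.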

Other observations

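Some members that the filter left out were above it on arrays that share a pool number, noticed after their values were seen and not tested. GATA6, a zinc finger factor, was 5.61 in NPd7 pool 2 and 5.45 in NPd14 pool 2, and between 2.47 and 2.53 on the other 10 arrays. HOXD10 was 4.03 and 4.18 on the same arrays and between 2.93 and 3.05 elsewhere. MEIS2 was also highest on these, at 7.16 and 7.67, but NPd7 pool 1 was close to the first of them, at 7.13. The labels do not say whether the NP pools numbered 2 share heifers.

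A second FOXP1 probe set had group means of 3.85 ± 0.46 for NPd7 and 3.40 ± 0.24 for CDd7, then 5.40 ± 0.31 for NPd14 and 4.12 ± 0.62 for CDd14 (SD, n = 3 each). It differed between the NP days by 1.55 (adjusted p = 0.0811 by limma) and between outcomes at day 14 by -1.28 (adjusted p = 0.398), while the brighter FOXP1 probe set differed by 0.09 and 0.30. The pair of probe sets disagree in these comparisons, and the cause was not tested.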
